A study of Homo sapiens with 12 samples.

Results

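The set described here is a stretch of the long arm of chromosome 4: the 289 genes, of 29822 genes with a position in the array files, whose probes lie on chromosome 4 between positions 124030000 and 179450000 of genome build NCBI36. The stretch had been chosen by earlier results of these arrays, in which the genes of this interval were on balance lower in a PAX3-FKHR knockdown clone than in both of the other cultures, so the 2 knockdown comparisons are described below without a test and only the comparison that the choice did not use is tested. A gene name on the array stands for one transcript or, where no name was given, one probe; 147 of the 289 members are RefSeq mRNAs, 219 have a name other than a probe number, and each gene is represented by its brightest probe.

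The cultures were Rh30 cells, a human alveolar rhabdomyosarcoma line that carries the fusion gene PAX3-FKHR. WT were untransfected parental cells grown without puromycin. CON was a stable Rh30 clone with a non-targeting shRNA, and KD1 a stable Rh30 clone with an shRNA against PAX3-FKHR. Both came from the retroviral pSUPER vector and were grown with puromycin at 1 μg/mL. CON and KD1 are thus 1 clone each, while WT is the parental line. A difference between clones, or between a clone and the parental line, and one made by the shRNA cannot be told apart. RNA was taken after 24 h of growth and compared 2 cultures at a time (KD1 vs CON, KD1 vs WT and WT vs CON) on 12 two-color Agilent whole human genome arrays, with 2 biological replicates per comparison and each replicate hybridized as a dye-swap pair. All values are log2 ratios of the first culture over the other, averaged over the dye-swap pair, so that each gene has 2 values per comparison. The 12 arrays hold 6 RNA extracts, and both KD1 comparisons share the KD1 extracts. Below, a ratio of KD1 is given against CON or against WT, and where 2 pairs of values follow a gene the first pair is against CON and the second against WT, replicate 1 before replicate 2.

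Genes that lie next to each other on a chromosome share its copy number in a cell line, so an extra or missing segment moves many neighbours by a similar small amount, while single genes may be raised or lowered far more by their own regulation. A clone is grown from one cell and carries whatever that cell carried. PAX3-FKHR binds DNA through the paired domain and the homeodomain of PAX3 and is mostly known as an activator of transcription. The copy number of these cultures was not measured on these arrays, and in bulk RNA fewer cells expressing a gene and less RNA per cell cannot be told apart.

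The genes joined in the fusion were measured outside the junction. The brightest PAX3 probe (A_23_P502706) had log2 ratios of −0.39 and −0.46 against CON and −0.45 and −0.33 against WT, and the brightest FOXO1 (FKHR) probe (A_23_P151426) had −0.26 and −0.58, and −0.79 and −0.41. The probes of PAX3 differed. A_24_P362595 had −0.25 and −0.32, and −0.22 and −0.29, while A_23_P209499 had 0.16 and −0.33, and 0.26 and −0.15. The other FOXO1 probe (A_24_P22079) had −0.25 and −0.52, and −0.45 and −0.14. Of the 8 rhabdomyosarcoma markers listed, 7 were well above background in both channels of every array, including MYOD1, DES and CDH15, and TFAP2B was on none. Of 6 markers of other cell types, PECAM1 and CD68 were also well above background throughout, PTPRC and ALB were on none, and KRT5 and EPCAM reached it only in some WT channels. The part of such cells in the results was not tested.

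On each of the 8 KD1 arrays, the measured 4q members as a group were lower in KD1. Of the 289 members, 136 were well above background, as the scanner software called it, in both channels of all 12 arrays, 64 in some channels and 89 in none. In the 136 well-measured members the median log2 ratio was −0.33 and −0.38 in the 2 replicates against CON, and −0.24 and −0.31 in the 2 against WT, against 0.00 and −0.02, and 0.06 and −0.03, in 17179 other well-measured genes. The medians of the members correspond to 79.6% of the CON level and 83.1% of the WT level. After normexp background correction with an offset of 50, which compresses ratios of dim probes, both medians were −0.19. On the 8 KD1 arrays taken one by one the median of the members lay between −0.20 and −0.43, and between 89 and 115 of the 136 were below 0. In WT vs CON, the medians were −0.09 and −0.04, against −0.06 and 0.00 in the other genes. The 89 members that were on no array well above background lie near the floor, where some values are surrogates set by the software. Their median was −0.03 against CON and 0.10 against WT, so counts over all 289 members dilute those over the measured ones.

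**Figure D1:**
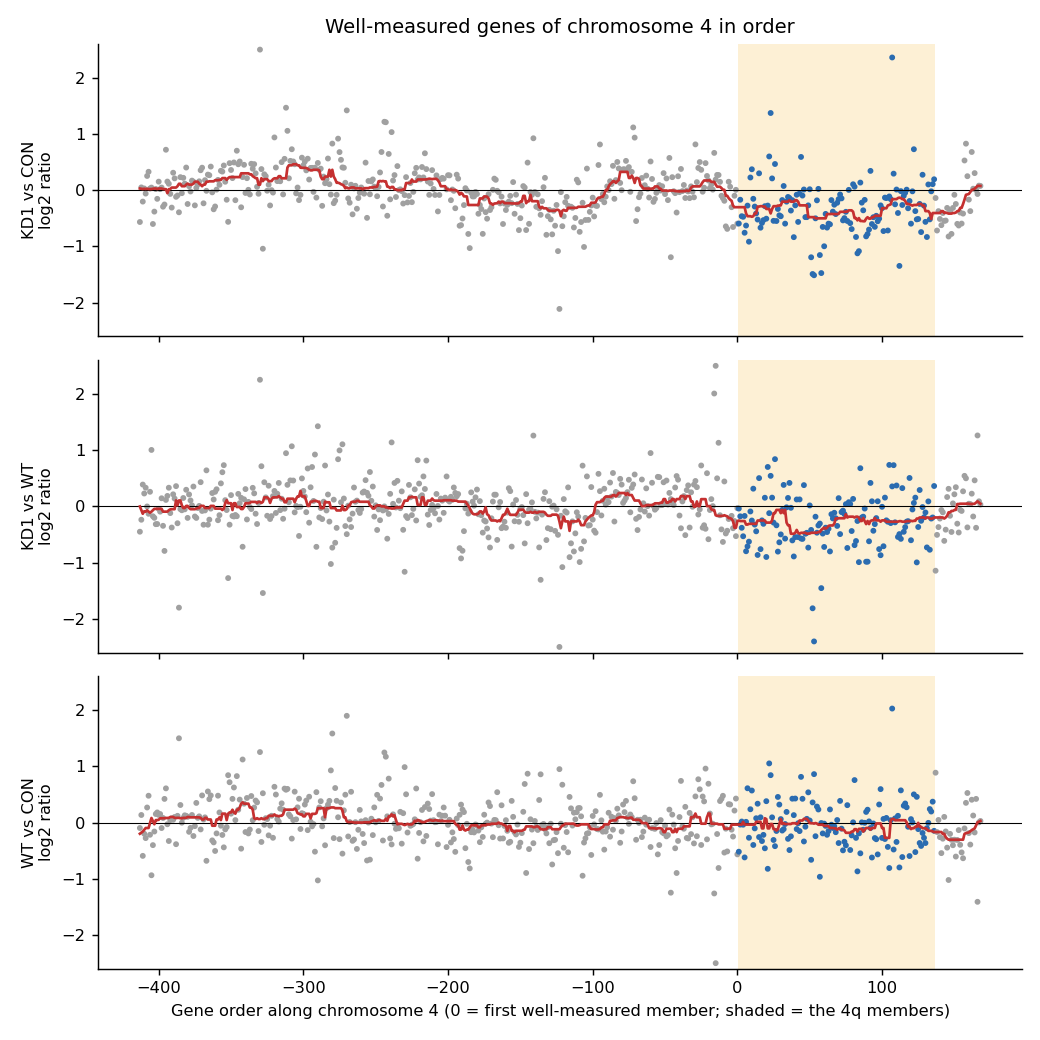
Log2 ratios (vertical axis, mean of 2 replicates; values beyond 2.5 drawn at 2.5) of the well-measured genes of chromosome 4 in their order along it (horizontal axis), with the 136 members in blue on the shaded ground, other genes in gray and a running median over 21 genes in red. In KD1 vs CON the running median stayed between −0.55 and −0.13 over the members, in KD1 vs WT between −0.49 and −0.06, and in WT vs CON it ran between −0.27 and 0.08.

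The edges of the stretch were not equally sharp. Among the 414 well-measured genes of chromosome 4 before the interval, the median was 0.02 against CON and 0.00 against WT. The 187 of them before 50 Mb had medians of 0.12 against CON and 0.01 against WT, and the 227 after it −0.04 and −0.005. Among those 227 the running median fell to −0.46 against CON, at A_32_P152999, and to −0.44 against WT, at A_32_P104469. Both lie within its range over the members, so low runs were not confined to the interval. Before 50 Mb the running median rose to 0.46 against CON, at BST1, and to 0.28 against WT, at QDPR. The last 20 well-measured genes before the interval, from METTL14 to BBS12, had medians of −0.04 and −0.03 in the 2 replicates against CON. The first 20 members, from NUDT6 to PABPC4L, had −0.35 and −0.51. The genes right at the boundary had like values on both sides, as a description without a test: BBS12, just outside, had −0.58 and −0.61 against CON and −0.10 and 0.04 against WT, and NUDT6, just inside, had −0.64 and −0.55, and −0.20 and 0.12. Next to them, LOC729338 outside had −0.59 and −0.43, with 0.30 and 0.56 against WT, FGF2 inside had −0.33 and −0.01, with −0.39 and 0.04, and BX641009 inside had −0.27 and −0.65, with −0.45 and −0.31. IL21, the next gene outside, was at background in all channels.

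At the far end, the low values went on beyond the interval. The last 20 well-measured members had medians of −0.25 and −0.43 against CON and −0.09 and −0.25 against WT. The 20 well-measured genes after it, from ODZ3 to PDLIM3, had medians of −0.43 and −0.52 against CON, −0.09 and −0.37 against WT and −0.31 and −0.23 in WT vs CON, so on the median the CON level of these genes was above both of the others. Over all 32 well-measured genes from there to the chromosome end the medians were −0.34 and −0.06. The last members were AGA, the lysosomal aspartylglucosaminidase, with 0.16 and 0.05 against CON, and the probe A_24_P75469, with 0.00 and 0.39. NEIL3, a DNA glycosylase just inside them, had −0.49 and −1.20, but was well above background in only 15 of 24 channels. The 3 genes nearest outside, MGC45800, A_32_P160206 and A_32_P105597, were each dim in part or all of the arrays and had KD1 vs CON means of −0.03, −0.05 and 0.00.

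Within the interval no segment carried the shift alone. Cut into 5 runs of 27 or 28 well-measured members, the medians of KD1 vs CON were −0.37, −0.27, −0.43, −0.36 and −0.24 in order, and those of KD1 vs WT −0.27, −0.47, −0.34, −0.25 and −0.22. The shift was larger among RefSeq mRNAs: the 87 well-measured ones had median log2 ratios of −0.48 against CON and −0.34 against WT, or 71.6% and 79.2% of the level, against −0.01 and 0.00 in 11890 other such mRNAs. The 49 other well-measured transcripts, which are unnamed probes, cDNA clones and predicted genes, had −0.18 and −0.05. Probes of the same gene were compared by their value averaged over both KD1 comparisons. Where both probes of a pair were well measured, both were below 0 in 32 of 36 pairs. In 0 pairs did they differ by 1 or more on the log2 scale. A probe below 0 in this average could be above 0 against WT, such as the RPS3A probe A_32_P135818, with −0.50 against CON and 0.12 against WT. Across the 136 members the replicate values of KD1 vs CON correlated with a Pearson r of 0.694, and those of KD1 vs WT with 0.241; members are neighbours on the same arrays and not independent.

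A member was said to follow the shift where it was below 0 in all 4 replicate values of both KD1 comparisons. Of the 288 members with all values, 73 did (25.3%), as did 11.6% of all placed genes, and of the 136 well-measured members 59 did (43.4%), as did 15.2% of all well-measured genes. As the interval was chosen on these comparisons, nothing is read from the difference. Of the 59, 40 were below 0 on each of the 8 arrays, as were 8.10% of all well-measured genes, and 0 well-measured members were above 0 on all 8, where 7.73% of all well-measured genes were. A member was said to exceed the shift where its mean was −1 or lower, a fall of 2-fold or more, in both comparisons with all 8 arrays below 0. That held for 6 members against a background of 0.733% of all placed genes, and for 3 of the 136 against 0.699%. After normexp 2 members, HHIP and AK124396, met that rule. A member was said to escape where both means were above 0, which held for 46 of the 288 members against 29.0%, and for 17 of the 136 (12.5%) against 32.0%. The other 60 well-measured members were neither.

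**Figure D2:**
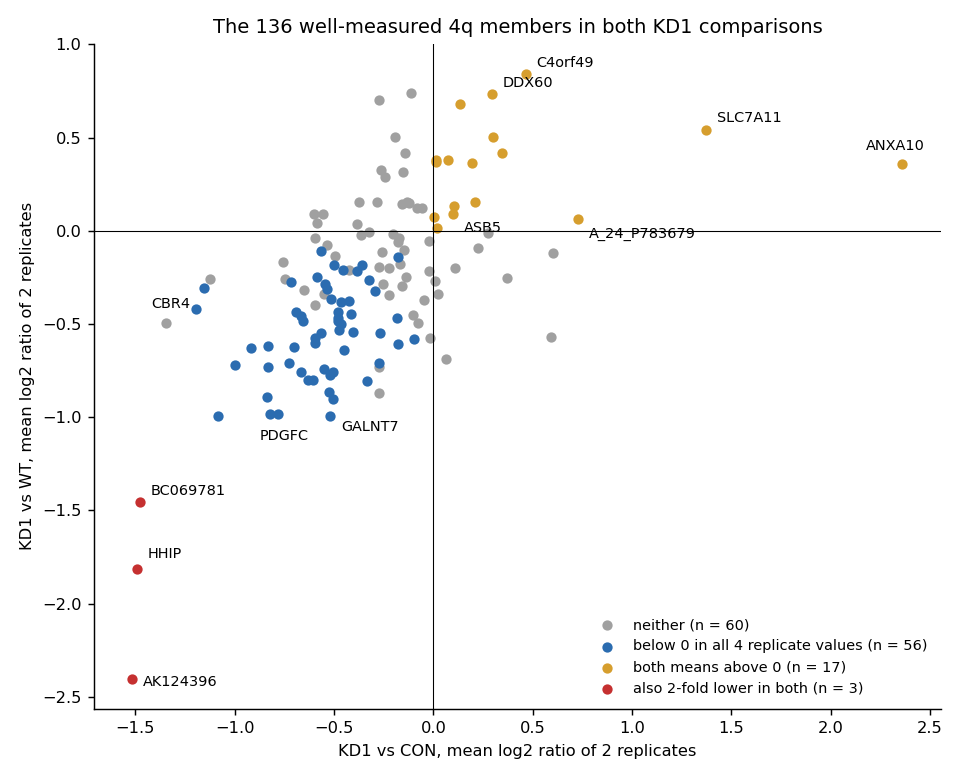
Mean log2 ratios of the 136 well-measured members in KD1 vs CON (horizontal axis) and KD1 vs WT (vertical axis); each point is a gene and the colors give its class, with 3 genes past 2-fold in both comparisons, 56 more that follow, 17 that escape and 60 that do neither. Most points lie in the lower left near the medians, HHIP, AK124396 and BC069781 lie far below it, and ANXA10 and SLC7A11 lie far to the right.

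Among the members closest to the shared shift were genes used in most cells. C4orf27 (now HPF1, a partner of PARP enzymes) had −0.22 and −0.43 against CON and −0.11 and −0.41 against WT. TMEM184C had −0.50 and −0.26, and −0.24 and −0.19. PLRG1, a spliceosome component, had −0.48 and −0.24, and −0.16 and −0.21. In each of these genes all 8 arrays were below 0. ARHGAP10, MORF4 and DDX60L were as close in their means, but each had at least 1 replicate value above 0.

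HHIP, the membrane-bound inhibitor of Hedgehog ligands, was the lowest RefSeq mRNA among the well-measured members. Its log2 intensity was 14.1 and 13.0 in the WT extracts, 12.9 and 13.5 in CON and 12.2 and 11.2 in KD1, so both KD1 extracts were below all 4 others. The KD1 vs CON ratios were −0.71 and −2.27 (mean −1.49 ± 1.1, SD, n = 2) and the KD1 vs WT ratios −1.89 and −1.74 (mean −1.81 ± 0.10, SD, n = 2). The transcript AK124396, whose probe is the next well-measured one along the chromosome, moved with it, at −0.57 and −2.45 against CON and −2.16 and −2.65 against WT. LOC646576, on the other side of HHIP, had −0.80 and −1.59, and −0.05 and −0.79, and ANAPC10, a subunit of the anaphase-promoting complex that follows AK124396, was back at −0.47 and −0.53, and −0.09 and −0.28. The steep values thus covered HHIP and AK124396 in both comparisons, and LOC646576 against CON alone.

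HAND2, a basic helix-loop-helix transcription factor of heart, limb and sympathetic neuron development, was dim but lower in both KD1 extracts. Its log2 intensity was 5.88 and 5.68 in WT, 5.76 and 6.01 in CON and 3.35 and 4.14 in KD1, and its spots were well above background in all 8 WT and all 8 CON channels but in 2 of 8 KD1 channels. Its ratios were −2.65 and −1.67 against CON (mean −2.16 ± 0.69, SD, n = 2) and −2.24 and −1.47 against WT (mean −1.86 ± 0.54, SD, n = 2), and the KD1 extracts overlapped with neither of the other cultures. The size of these ratios depends on the background correction, since normexp with an offset of 50 gave means of −0.27 and −0.31. BC069781, a cDNA next to SMAD1, had −1.21 and −1.74, and −1.64 and −1.27, with means of −0.30 and −0.40 after normexp.

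GUCY1B3, the beta subunit of soluble guanylate cyclase, the nitric oxide receptor, had levels that overlapped between no 2 of the 3 cultures. Its log2 intensity was 6.87 and 7.13 in WT, 8.03 and 7.94 in CON and 6.55 and 4.90 in KD1. The KD1 vs CON ratios were −1.56 and −2.84, and the KD1 vs WT ratios −0.16 and −2.21, so the distance from WT rests on replicate 2. Its partner subunit GUCY1A3, in the same stretch, had −0.16 and −0.70, and 0.72 and 0.00, and was well above background in 14 of 24 channels. CLGN, calmegin, an endoplasmic reticulum chaperone best known from testis, met the 2-fold rule but was measured in WT alone. It was well above background in 4 of 8 WT channels and in none of KD1 or CON. Its WT level was at least 1.91-fold higher than that of KD1. Its KD1 vs CON ratio compares 2 levels that were never well above background, so it gives no measured fall against CON.

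PDGFC, a ligand of the PDGF alpha receptor, was low by a like amount in all KD1 values. Its log2 intensity was 12.02 and 11.85 in WT, 11.9 and 11.5 in CON and 11.1 and 10.8 in KD1, with no overlap between KD1 and the others. The ratios were −0.84 and −0.81 against CON (mean −0.82 ± 0.02, SD, n = 2) and −0.85 and −1.12 against WT (mean −0.98 ± 0.19, SD, n = 2), and its 8 arrays lay between −0.75 and −1.22. A probe beside it, A_32_P225328, had −0.75 and −0.82, and −0.61 and −1.35. TBC1D9, a Rab GTPase-activating protein relative, had −0.70 and −0.97, and −0.90 and −0.88. KIAA0922 (now TMEM131L) had −0.69 and −1.48, and −1.16 and −0.83. MMAA, which serves vitamin B12 metabolism in mitochondria, had −0.76 and −1.24, and −0.38 and −1.06. KIAA1712 (now CEP44, a centrosome protein) had −0.53 and −1.14, and −0.57 and −0.89. Its other probe, A_23_P385911, was also well measured and lower, with means of −1.50 against CON and −1.02 against WT. The class of KIAA1712 thus rests on the choice of the brightest probe.

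**Figure D3:**
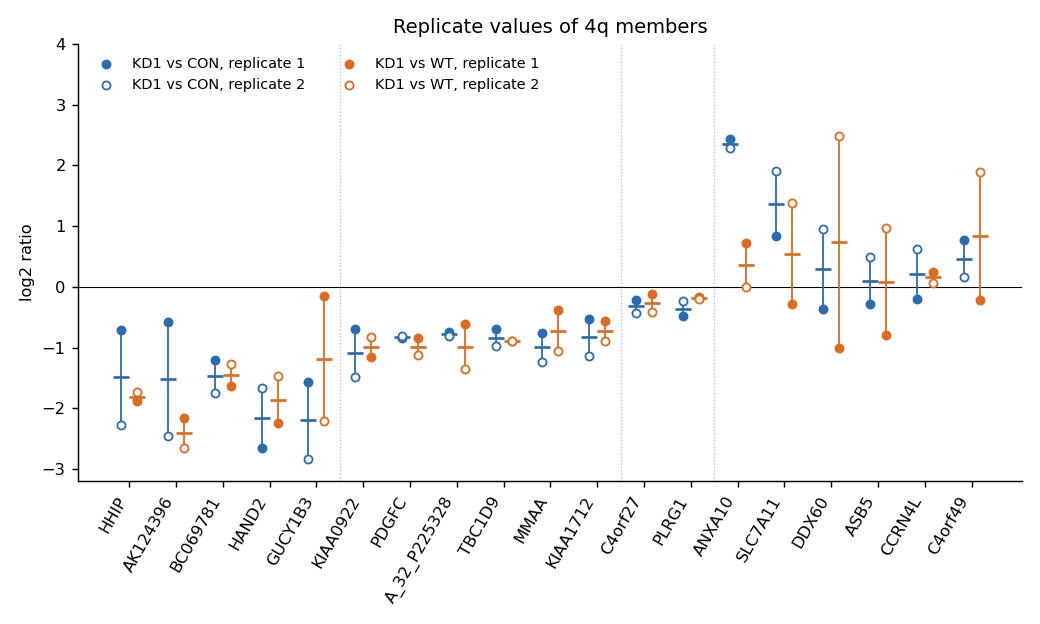
Log2 ratios (vertical axis) of 19 members in KD1 vs CON (blue) and KD1 vs WT (orange), with filled points for replicate 1, open points for replicate 2 and a short bar at their mean; dotted lines part genes past 2-fold in both comparisons, other low genes, genes near the median and RefSeq mRNAs with both means above 0. The points of PDGFC lie close together, while those of DDX60 lie on both sides of 0 in both comparisons.

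Growth factor and morphogen signalling genes of the stretch held both members that followed and members that did not, among ligands too. The counts of this and the following lists stand beside 43.4% of all 136 well-measured members and 15.2% of all well-measured genes that followed, and since the members were chosen on these comparisons nothing is read from a list on its own. Of 17 members on that list 10 were well measured; 6 of these followed and none escaped, with medians of −0.54 against CON and −0.49 against WT. Besides HHIP and PDGFC, SMAD1, the signal transducer of BMP receptors, had −0.56 and −0.75, and −0.57 and −0.40; the docking protein GAB1 had −0.49 and −0.47, and −0.59 and −0.39; and the exchange factor RAPGEF2 had −0.36 and −0.65, and −0.80 and −0.72. The cytokine IL15 had −0.51 and −0.62, and −0.45 and −0.64. In contrast the ligands FGF2 and VEGFC had replicate values on both sides of 0, with VEGFC at −0.23 and 0.19, and −0.44 and 0.01, and the lipid phosphatase INPP4B had −0.23 and 0.12, and −0.17 and 0.42. SPRY1, a feedback inhibitor of FGF signalling, had −0.88 and −0.64 against CON but −0.54 and 0.20 against WT.

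Cell division and chromatin genes were nearly all measured. Of 14 members 13 were well measured, 8 of these followed and none escaped, with medians of −0.55 and −0.45. PLK4, the kinase that starts centriole duplication, had −0.58 and −1.25, and −0.26 and −1.0. FBXW7, a ubiquitin ligase substrate receptor, had −0.46 and −0.64, and −0.28 and −1.20. PHF17 (now JADE1) had −0.47 and −0.86, and −0.49 and −1.03. The chromatin protein HMGB2, bright in all extracts, had −0.28 and −0.75, and −0.19 and −0.54, and the remodeling ATPase SMARCA5 had −0.30 and −0.66, and −0.23 and −0.71. In all 5 of these examples the values of replicate 2 were the lower ones. In INTU, which is on the list and followed too, those of replicate 1 were, at −0.934 and −0.325, and −1.257 and −0.338. MND1, which acts in meiotic recombination, and SAP30, of the SIN3 corepressor, did not follow, since replicate 1 of KD1 vs WT stood at 0.09 and 0.00.

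Genes of translation and RNA processing, metabolism and membrane traffic had 5 of 11, 5 of 12 and 9 of 15 well-measured members that followed, beside 43.4% over the interval. In translation and RNA processing all 11 members were well measured and 5 followed, among them NARG1 (now NAA15, an N-terminal acetyltransferase subunit) at −0.22 and −0.67, and −0.14 and −1.14, with list medians of −0.36 and −0.34, and DDX60 escaped. RPS3A, a ribosomal protein and the brightest of them, had −0.65 and −0.34, and −0.28 and 0.00. In metabolism 12 of 17 were well measured, 5 followed and SLC7A11 escaped, with medians of −0.55 and −0.39. There the electron transfer enzyme ETFDH had −0.36 and −0.60, and −0.43 and −0.44, and the steroid-binding membrane protein PGRMC2 had −0.48 and −0.57, and −1.07 and −0.66. CBR4, a reductase of mitochondrial fatty acid synthesis, was far lower against CON, at −1.21 and −1.48, but had 0.05 and −1.03 against WT. In membrane traffic, ubiquitin and cytoskeleton 15 of 21 were well measured and 9 followed, with medians of −0.41 and −0.49, for instance TRIM2 at −0.60 and −1.07, and −0.58 and −0.65, the glycosyltransferase GALNT7 at −0.39 and −0.65, and −1.07 and −0.92, and the actin-associated protein PALLD at −0.43 and −0.39, and −0.48 and −0.60.

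The remaining lists held few members that were well measured throughout. Of 12 genes for neuronal receptors and cadherins 2 were well measured, GLRB, which followed, and PCDH18, which had 0.93 and 0.27, and −0.78 and 0.54. Of 9 liver and immune genes 3 were well measured and 1 followed, and the fibrinogen genes FGA, FGB and FGG were on no array above background. Of 9 transcription factors 4 were well measured and 3 followed (ELF2, SMAD1 and ZNF827), with list medians of −0.60 and −0.37. The lists hold what general knowledge gives of these neighbours and share SMAD1, IL15, TDO2, TLR2, DDX60 and DDX60L between them.

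**Figure D4:**
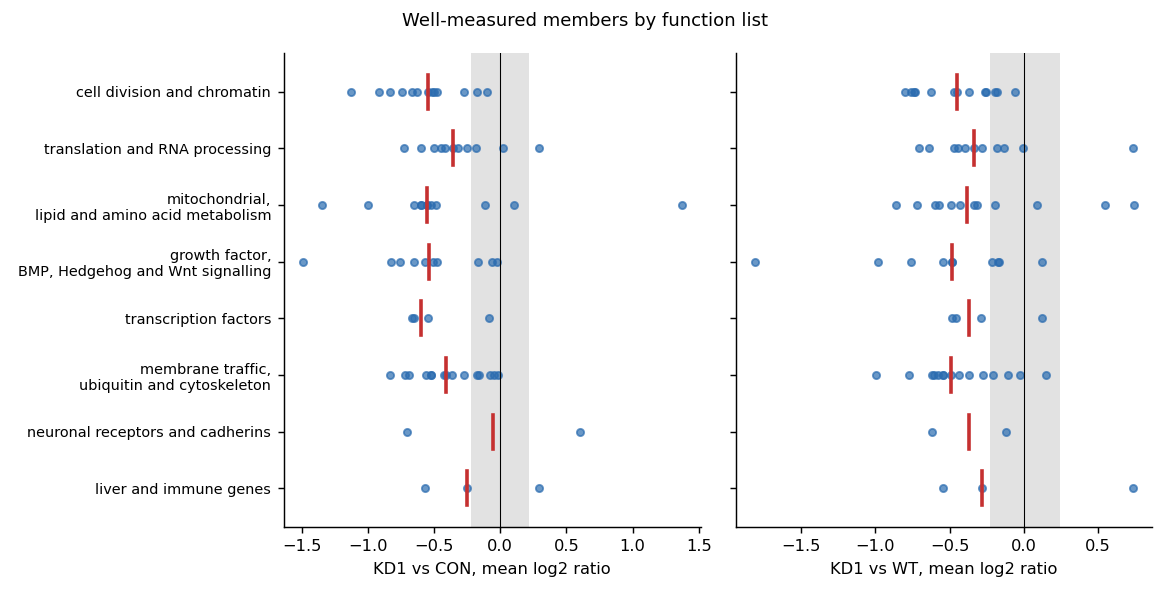
Mean log2 ratios (horizontal axes) of the well-measured members of 8 function lists in KD1 vs CON (left) and KD1 vs WT (right), one point per gene, with the list median in red and the quartiles of all other well-measured genes as a gray band. The medians of 7 lists lie below the band in both comparisons, and the neuronal list, with 2 genes, lies inside it in KD1 vs CON.

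Escape was rarely steady. Of the 17 well-measured members with both means above 0, 6 were RefSeq mRNAs and 11 other transcripts, and 1 was above 0 in all 4 replicate values, the unnamed probe A_24_P75469 at the end of the interval, where 15.2% of all well-measured genes were above 0 in all 4. The class depended on the replicate: without replicate 1, 16 RefSeq mRNAs escaped, and without replicate 2, 1 did. SLC7A11, the cystine-glutamate exchanger, had log2 intensities of 7.90 and 7.30 in WT, 6.86 and 6.73 in CON and 7.68 and 8.63 in KD1. Its ratios were 0.83 and 1.92 against CON (mean 1.37 ± 0.77, SD, n = 2) and −0.29 and 1.37 against WT (mean 0.54 ± 1.17, SD, n = 2), so KD1 was above CON in both replicates and above WT in replicate 2 alone. DDX60, an interferon-induced helicase, had −0.37 and 0.96, and −1.01 and 2.48, and its neighbour DDX60L had −0.57 and 0.07, and −0.80 and 0.24. ASB5, a muscle-expressed ankyrin repeat protein, had −0.29 and 0.49, and −0.79 and 0.97. CCRN4L (now NOCT, nocturnin) had −0.21 and 0.62, and 0.25 and 0.06, and C4orf49 (now MGARP) had 0.77 and 0.16, and −0.22 and 1.90. SLC7A11 and CCRN4L are neighbours among well-measured members, and ELF2, between CCRN4L and C4orf49, followed the shift at −0.42 and −0.67, and −0.38 and −0.20.

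One feature of the other transcripts lies in the probe itself. The stretches below are shown because they occur letter for letter both in the brightest probe of a 4q member and in a probe that the array files place on another chromosome; they are read as the files print the probes, and capitals mark the whole shared run. Such a run of at least 20 bases was found in 8 of 136 well-measured members (5.88%) and in 3.85% of the other well-measured genes.
A_32_P18493 (4q) and RPL14 (chromosome 3): AAAGCTTCTCCCAAAAAAGCACCTG
ENST00000413471 (4q) and RPL15 (chromosome 3): TAACCAGCTAAAGTTTGCTC
A_24_P229911 (4q) and WDR45 (chromosome X): TCAACTCTGTCATTGCCATCTG
A_24_P75469 (4q) and A_24_P505981 (chromosome X): AAGATACTGTGAATCTAAGAAGATTGAT
BC070327 (4q) and ENST00000399198 (chromosome 15): GATGTCAGTGTTATATCCTCC
RPS3A (4q) and A_32_P4532 (chromosome 5): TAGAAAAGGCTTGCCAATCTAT

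None of the 8 followed and 3 escaped (A_24_P229911, A_24_P75469 and BC070327), with medians of −0.13 against CON and 0.34 against WT; the 128 members without such a run had −0.37 and −0.29, and 59 of them followed. A_32_P18493 had −0.11 and −0.14, and 0.30 and 0.00, and ENST00000413471 had −0.19 and −0.12, and 0.34 and 0.29. All of the 8 but RPS3A are other transcripts, while most of the 128 are RefSeq mRNAs. The 49 well-measured other transcripts as a class had medians of −0.18 and −0.05. Of these 49, 14 followed (28.6%), and none of the 14 holds a shared run. What a shared run adds to the class of transcript was not tested, and the members with a run are few. How much signal such probes take from RNA of the other gene was not tested, so that the values of these 8 are uncertain.

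The promoters were searched for short letters known from sites of PAX3 as a description of the members. RefSeq promoters of assembly GRCh38.p14 were available for 122 members, and the 250 bases before the gene start were searched on both strands for a short paired-domain core (GTTC) followed within 20 bases by the homeodomain core ATTA, and for ATTA alone. The paired-domain site given in the paper also allows A in place of that C. The CPT1A promoter site that the paper tested for binding has the A. The form with A was not searched, so the counts below hold for GTTC only. The composite was in 9 of the 122 (7.38%) and in 6.26% of all 27305 promoters of the table; it was in 2 of 35 well-measured followers and in 3 of 37 other well-measured members. The core ATTA was in 49 of the 122 (40.2%) and in 48.6% of all. HAND2 and HHIP are shown because both are past 2-fold and their sequences differ greatly: HAND2 holds 5 overlapping or separate cores (capitals mark ATTA or TAAT) at 49.6% G and C, and HHIP none at 74.8%. The windows are chr4:173530230-173530479, minus strand, for HAND2 and chr4:144645906-144646155, plus strand, for HHIP, and neither holds the composite with GTTC.
HAND2: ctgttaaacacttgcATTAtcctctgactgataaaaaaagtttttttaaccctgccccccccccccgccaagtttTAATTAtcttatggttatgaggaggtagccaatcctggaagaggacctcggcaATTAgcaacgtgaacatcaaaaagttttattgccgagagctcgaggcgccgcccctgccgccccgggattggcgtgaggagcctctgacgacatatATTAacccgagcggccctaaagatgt
HHIP: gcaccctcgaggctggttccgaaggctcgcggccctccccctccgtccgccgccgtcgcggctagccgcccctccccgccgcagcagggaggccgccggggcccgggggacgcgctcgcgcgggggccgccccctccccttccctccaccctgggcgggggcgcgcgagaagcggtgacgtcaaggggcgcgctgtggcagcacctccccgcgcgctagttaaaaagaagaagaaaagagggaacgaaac

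The WT vs CON comparison was not used to choose the interval and was tested with limma. Of 26566 probes tested 377 (1.42%) were called at an adjusted p of 0.05, and of the 156 members tested 4 were called, 2 higher and 2 lower in WT. SPOCK3, which encodes the proteoglycan testican-3, had a log2 intensity of 6.06 and 5.48 in WT, 6.28 and 6.15 in KD1 and 2.73 and 2.54 in CON, where no channel was well above background. WT was thus at least 3.61-fold and KD1 at least 4.90-fold higher than CON, with a limma adjusted p of 0.00142 for WT vs CON. The CON value is only a bound and the probe entered the test through WT, so neither that p nor the fitted ratio measures the size of the difference. GLRA3, a glycine receptor subunit, stood the other way, at −3.05 and −2.19 (mean −2.62 ± 0.61, SD, n = 2; limma adjusted p = 0.00463), with log2 intensities of 6.27 and 6.27 in CON, 3.66 and 4.0 in WT and 4.22 and 3.96 in KD1. GLRA3 was well above background in all 8 CON channels but in 3 of 8 WT and 5 of 8 KD1 channels. A probe could enter the test through CON alone, so here too neither the p nor the ratio measures the size of the difference. Of its 3 probes 1 differed by more than 1 from the brightest, and that probe was at background in all channels.

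ANXA10, an annexin, had 1.79 and 2.27 in WT vs CON (mean 2.03 ± 0.34, SD, n = 2; limma adjusted p = 0.0123), with log2 intensities of 7.25 and 7.59 in WT, 5.51 and 5.32 in CON and 7.98 and 7.55 in KD1. Its KD1 vs CON ratios of 2.44 and 2.28 were the highest of all well-measured members, and its KD1 vs WT ratios were 0.72 and 0.00. DKFZP434I0714 had −1.76 and −1.32 (mean −1.54 ± 0.31, SD, n = 2; limma adjusted p = 0.0216), and it was not among the members well above background throughout. It too could enter the test through CON alone, so neither its p nor its ratio measures the size of the difference. In SPOCK3, GLRA3 and ANXA10, WT and KD1 thus stood together and CON apart. After normexp limma called 2 of all 26566 probes and 0 members, and DKFZP434I0714 was not called in either fit of extract levels. An unadjusted limma p under 0.05 was reached after normexp by 28 of the 156 members and by 4682 of the 26566 probes. In the values above it was reached by 22 members and 4396 probes, and nothing is read from these counts.

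**Figure D5:**
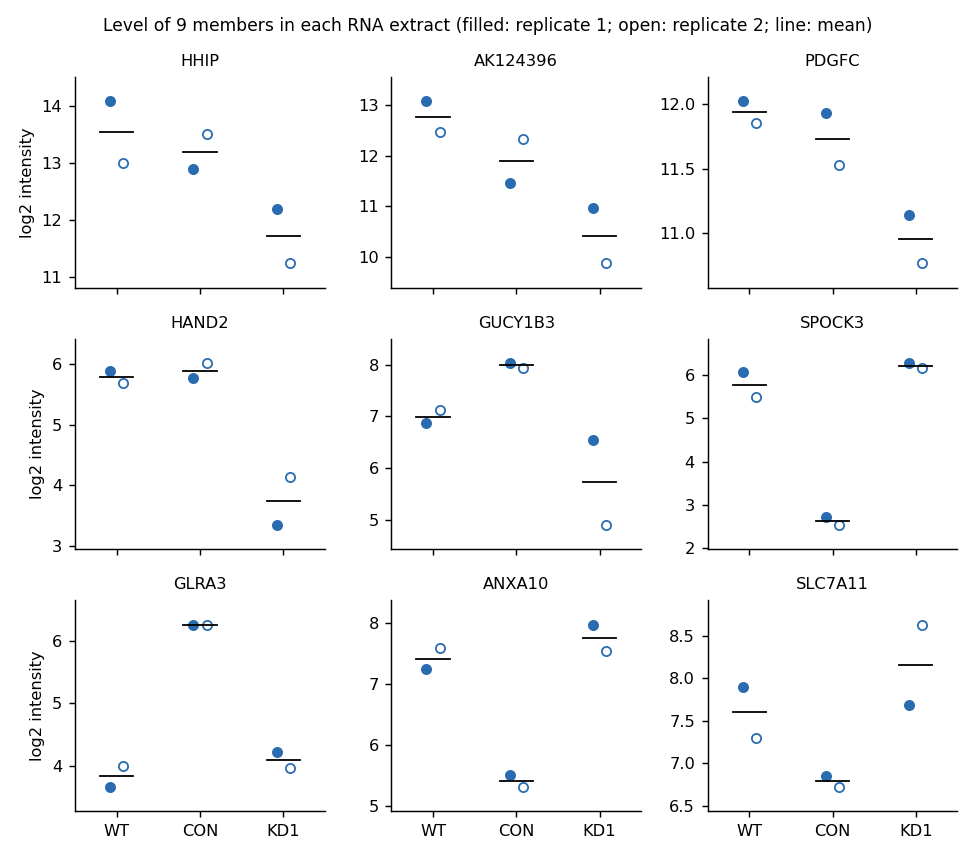
Log2 intensity (vertical axes, each panel on its own scale) of 9 members in the 2 RNA extracts of WT, CON and KD1 (filled, replicate 1; open, replicate 2; line, mean). HHIP, AK124396, PDGFC, HAND2 and GUCY1B3 are lowest in both KD1 extracts, while SPOCK3, ANXA10 and SLC7A11 are lowest and GLRA3 is highest in both CON extracts.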

How the data were processed

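The authors deposited, for 12 arrays, linear intensity values of each spot from Agilent Feature Extraction 10.5.1.1 (background-subtracted, detrended and lowess-normalized within the array), a log10 ratio of red over green, used here as a check, and a series table of that ratio on the log2 scale; positions are those of the files (NCBI36). Each array had 41000 gene probes and 153 negative controls; precision is limited by how few arrays there are. Processed signals were turned into log2 ratios and averaged over spots and dye-swap pairs; outlier spots were left out. Extract levels are separate-channel values after limma's Aquantile. The 3 comparisons were fitted with limma 3.58.1 in R 4.3.3 with 2 residual degrees of freedom, because they share 6 extracts, on probes that outshone 99% of negative controls in 1 or both channels of all WT vs CON arrays, with Benjamini-Hochberg adjustment. The fit was tested on simulated data. The members, lists and class limits were chosen with earlier results of these data known. Genes named are the 10 lowest and 10 highest members with 1 sign on all 8 KD1 arrays, the 10 nearest the medians, 3 on each side of each edge, those called in WT vs CON, list members as examples and those with differing probes; the other members of the exceed and escape classes and the neighbours of named genes were named after their values were seen. WT vs CON had 1 slide for its 4 arrays, and each KD1 replicate had its own, so slide and comparison, or slide and replicate, cannot be told apart.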

Additional observations from a re-analysis of the deposited data

How the results depend on the processing

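Called WT vs CON members, with the calls over all probes beside them, numbered 4 of 377 in the values reported, 0 of 2 after normexp, 4 of 115 with median centring, 4 of 365 with the series table, 4 of 200 without a filter, 5 of 946 with the WT vs CON arrays alone, 3 of 131 with the replicate block on extract levels and 3 of 115 without it. The deviations of extracts with the same replicate number correlated for KD1 with CON (0.535), but not for KD1 with WT (−0.03) or CON with WT (0.00). Leaving out a replicate left no residual degrees of freedom in WT vs CON, so that fit was not run.

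Over all members the median of KD1 vs CON was −0.14, and it was −0.031 after normexp, −0.28 with median centring (179 members with a value), −0.33 in the 136 well-measured members and −0.37 in 131 members above the negative control limit; the median of KD1 vs WT was −0.025, and −0.24, −0.27 and −0.29 in the last 3. Members past 2-fold numbered 6, and 2 after normexp (HHIP and AK124396) and 3 among the well measured; escaping members numbered 46, and 25 with median centring, 17 among the well measured and 16 above the control limit. Without replicate 1 the medians were −0.17 against CON and −0.07 against WT, with 133 members below 0, 9 past 2-fold and 35 escaping. Without replicate 2 they were −0.15 and 0.08, with 106 below 0, 3 past 2-fold and 86 escaping. Medians of WT vs CON moved by less than the spread between replicates under each alternative scaling. The causes of these moves were not tested. In the 87 well-measured RefSeq mRNAs the medians stayed below 0 under every scaling, from −0.36 to −0.49 in KD1 vs CON and from −0.26 to −0.34 in KD1 vs WT.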
